A study of Homo sapiens with 20 samples.

Results

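MYC and the gene-poor stretch around it in band 8q24 were followed through lists of open-chromatin intervals from a pair of colon adenocarcinoma cell lines, LOVO and RKO. The members are all intervals that the 10 deposited lists place on chromosome 8 from 126.5 to 129.5 Mb (hg38), a window of 3 Mb with MYC at 127735434 to 127742951. They number 442 of 292390 intervals over all lists. Joined wherever they overlap by at least 1 bp, the 442 intervals form 119 regions. The intervals come from ATAC-seq, which marks accessible DNA by where a transposase can cut it.

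All cells of both lines carried a short hairpin RNA, either the control hairpin shControl or shMETTL3, directed against the RNA methyltransferase METTL3, which places m6A marks. Some were treated with the PARP inhibitor olaparib, at a dose and for a time that the labels leave out. The labels count 20 samples. In each line 4 are untreated shControl, among which 2 bear a batch 2 label, and the groups untreated shMETTL3, olaparib shControl and olaparib shMETTL3 have 2 samples apiece. The lists hold no RNA values, so the knockdown of METTL3 could not be checked. The lists are for groups and not for samples, 5 per line. Untreated shControl has 2 lists per line, one that holds intervals only and is called merged after its name, and one in which each interval carries a score, called scored. The untreated shMETTL3 lists are merged lists and the olaparib lists are scored lists. There are thus no replicate values and no test between groups, and the 2 untreated shControl lists of a line are the only measure of spread, although they also differ in form.

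MYC encodes a transcription factor that drives growth and division, and in the intestine it is a main target of Wnt signalling through beta-catenin and TCF factors. Its gene lies almost alone in a large stretch without other protein-coding genes, filled with long non-coding RNA genes and with enhancers that contact the MYC promoter in a tissue-dependent way. The stretch upstream of MYC carries enhancers known for colorectal cancer, and PVT1, the long non-coding RNA gene just downstream, has a promoter and intronic enhancers that share the neighbourhood with MYC. LOVO carries a truncated APC, which leaves Wnt signalling on, whereas APC is intact in RKO.

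The lists differed in size, from 6916 intervals in untreated RKO shMETTL3 to 51462 in LOVO shMETTL3 with olaparib, and the sequencing depth behind them is unknown, so that a missing interval does not show closed chromatin. Of 10 colon epithelial marker genes, 4 to 9 had an interval at a gene end in a LOVO list and 1 to 5 in a RKO list. CDH1, KRT19, VIL1, CDX1 and CEACAM5 had none in any RKO list, whereas KRT8 had one in every list of both lines. Of the 4 endothelial markers none had an interval in any list, and of 5 leukocyte markers at most 2 did. Of 5 mesenchymal markers 1 to 3 had one, and of 4 neuronal markers 0 to 3. Among the mesenchymal markers ZEB1 had one in every RKO list, and VIM and PDGFRB had none in any RKO list.

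At the start of MYC the lines differed in the untreated merged lists. In RKO an interval of 1218 bp (127735080 to 127736297) lay across the start in merged shControl, and one of 1199 bp in scored shControl. It spanned 1229 bp with olaparib in shControl and 1247 bp with olaparib in shMETTL3. In untreated shMETTL3 an interval of only 177 bp (127735219 to 127735395) ended 39 bp before the start. All 5 RKO lists thus held an interval within 1000 bp of the MYC start, and that of untreated shMETTL3 was the narrow one.

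In LOVO neither merged list, untreated shControl or untreated shMETTL3, had an interval there. Scored untreated shControl had a pair of intervals, 340 bp (127735122 to 127735461) and 355 bp (127735798 to 127736152). Both carried 1 peak name and 1 score of 9.50, above 55.2% of the scores of that list. With olaparib, shControl had a pair of 605 and 407 bp, again under 1 peak name, and shMETTL3 had a single interval of 1248 bp, the widest LOVO interval at MYC. The start of MYC was therefore missing from both merged LOVO lists, shControl and shMETTL3 alike, and present in all 3 scored LOVO lists. Of 2448 ends of protein-coding genes with at least as many covered bases as the MYC start (695) in scored LOVO shControl, 61 (2.49%) had no interval in the merged list. The cutoff is the value of MYC itself and was not planned beforehand, so this share is a description. With olaparib the LOVO scores at the MYC start were 6.86 in shControl and 7.02 in shMETTL3, above 29.8% and 30.0% of their lists. In RKO they were 6.31 in untreated shControl, 6.99 in olaparib shControl and 7.32 in olaparib shMETTL3, above 33.8%, 38.2% and 39.4% of the scores of each list. Only scored LOVO shControl thus placed the MYC start in the upper part of its list.

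The other end of MYC was the more constant one. An interval just past the end of the gene, beginning 69 to 136 bp beyond it, lay in 9 lists, the exception being untreated RKO shMETTL3. In LOVO it spanned 290 bp in merged and 200 bp in scored shControl, 227 bp in untreated shMETTL3, 228 bp with olaparib in shControl and 233 bp with olaparib in shMETTL3. In RKO it spanned 270, 165, 196 and 186 bp in the 4 lists that held it. A second interval inside the gene, near its end, was held by 3 LOVO and 4 RKO lists and by neither merged shControl list. In untreated RKO shMETTL3 it was the one interval within 1000 bp of the MYC end, which it reached with 5 bp. In RKO shMETTL3 with olaparib a further interval of 109 bp lay 2.27 kb into the gene.

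**Figure D1:**
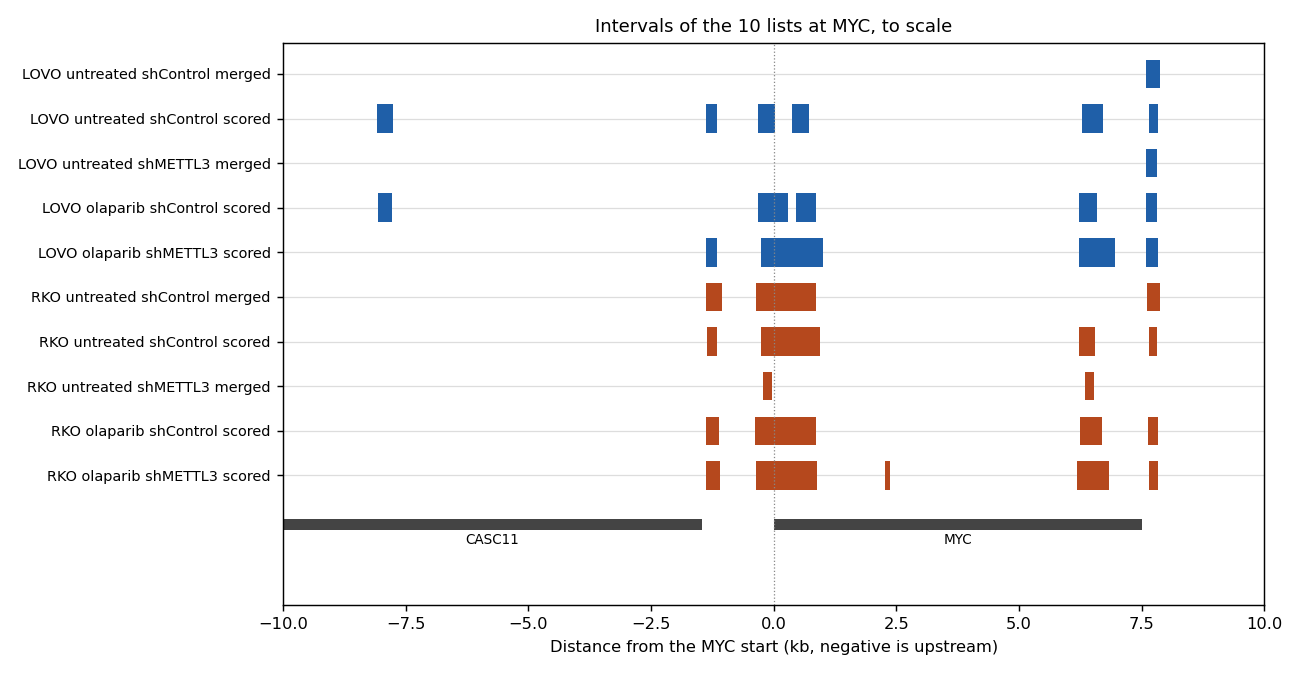
Intervals of the 10 lists within 10 kb of the MYC start, drawn to scale (x axis, distance from the start in kb, negative upstream; 1 row per list, LOVO blue and RKO orange; grey bars, annotated genes). Both merged LOVO rows are empty at 0 kb, while the interval just past the MYC end appears in 9 of 10 rows.

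Around MYC, the gene ends on either side showed different line patterns. A region at the right-hand end of CASC11 (127734047 to 127734370), a long non-coding RNA gene, lay 1.06 kb before the MYC start and was in 2 LOVO and 4 RKO lists. It was the nearest region upstream. Downstream, the first region past the site at the MYC end (206 bp, 31.7 kb from the MYC start) was in merged RKO shControl alone. The start of PVT1 (127794524) had an interval in 9 lists, all but untreated LOVO shMETTL3. That region ran from 127793816 to 127795404, and its interval was 1377 bp wide in merged LOVO shControl and 1564 bp in merged RKO shControl, the widest RKO interval of the window in that list, but 270 bp in untreated RKO shMETTL3. LRATD2, 1177 kb upstream of MYC, was the other protein-coding gene with an interval at an end, in 9 lists, all but untreated RKO shMETTL3. Its right-hand end, which overlaps the start of LOC105375751, carried 1210 bp in merged LOVO shControl, 252 bp in untreated LOVO shMETTL3 and 553 bp in merged RKO shControl. POU5F1B, a retrotransposed copy of the gene for the stem cell factor OCT4, had no interval in its body or at an end in any list.

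Among the non-coding RNA genes upstream, CCAT1, named for its expression in colon cancer, had an interval at an end in all 5 LOVO and no RKO list, and so had CCAT2 and LOC105375754. PRNCR1 had one in 4 RKO lists and no LOVO list. No CCAT1 end was covered in RKO, but 3 regions inside the CCAT1 body, at 525, 523 and 519 kb upstream of MYC, were held by 3 or 4 RKO lists and by no LOVO list. A different region of the body, 520 kb upstream, was held by 4 LOVO lists and no RKO list. The RKO intervals of those 3 regions scored above 4.38 to 38.1% of their lists, and the LOVO intervals of the region at 520 kb above 33.7 to 50.6%. Inside this gene of 11887 bp the lines thus had listed intervals at different places, though weak intervals may be missing from a list.

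Over the whole window LOVO had 35 intervals in merged shControl, 58 in scored shControl, 22 in untreated shMETTL3, 45 with olaparib in shControl and 64 with olaparib in shMETTL3. RKO had 44, 39, 14, 49 and 72. The intervals covered from 3.48 kb in untreated RKO shMETTL3 to 23.5 kb in merged LOVO shControl. Although poor in protein-coding genes, the window was not poor in open chromatin: its intervals per Mb were 1.06 to 1.43 times those of the whole list in LOVO and 1.60 to 2.07 times in RKO. Within 0.5 Mb of the MYC start LOVO lists reached ratios of 2.01 to 3.16 and RKO lists 2.73 to 4.42. Chromosome 8 as a whole held 4.81 to 5.22% of the intervals of a RKO list and 3.63 to 3.99% of a LOVO list. Of the intervals on the chromosome, the window held 3.27 to 3.92% in RKO lists and 2.74 to 3.69% in LOVO lists. The part of the chromosome's share in the ratio was not tested.

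LOVO intervals lay mostly upstream of MYC, and RKO intervals on both sides. In LOVO 62.2 to 72.7% of the window's intervals lay upstream of the MYC start in the 5 lists, and in RKO 28.6 to 49.0%. The ranges do not overlap, and the untreated shControl lists, which differ in form, gave 62.9 and 65.5% in LOVO and 43.2 and 43.6% in RKO. The control lists of a line thus differed by less than the lines did. The window reaches farther downstream of MYC than upstream. Within 0.5 Mb of the MYC start, where both sides are equally long, the LOVO lists in the order given had 14, 25, 12, 19 and 29 intervals upstream and 8, 14, 5, 12 and 16 downstream, and the RKO lists 6, 6, 2, 8 and 12 upstream and 18, 17, 8, 18 and 27 downstream. Close to MYC, LOVO was thus the denser upstream in each list and RKO downstream.

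**Figure D2:**
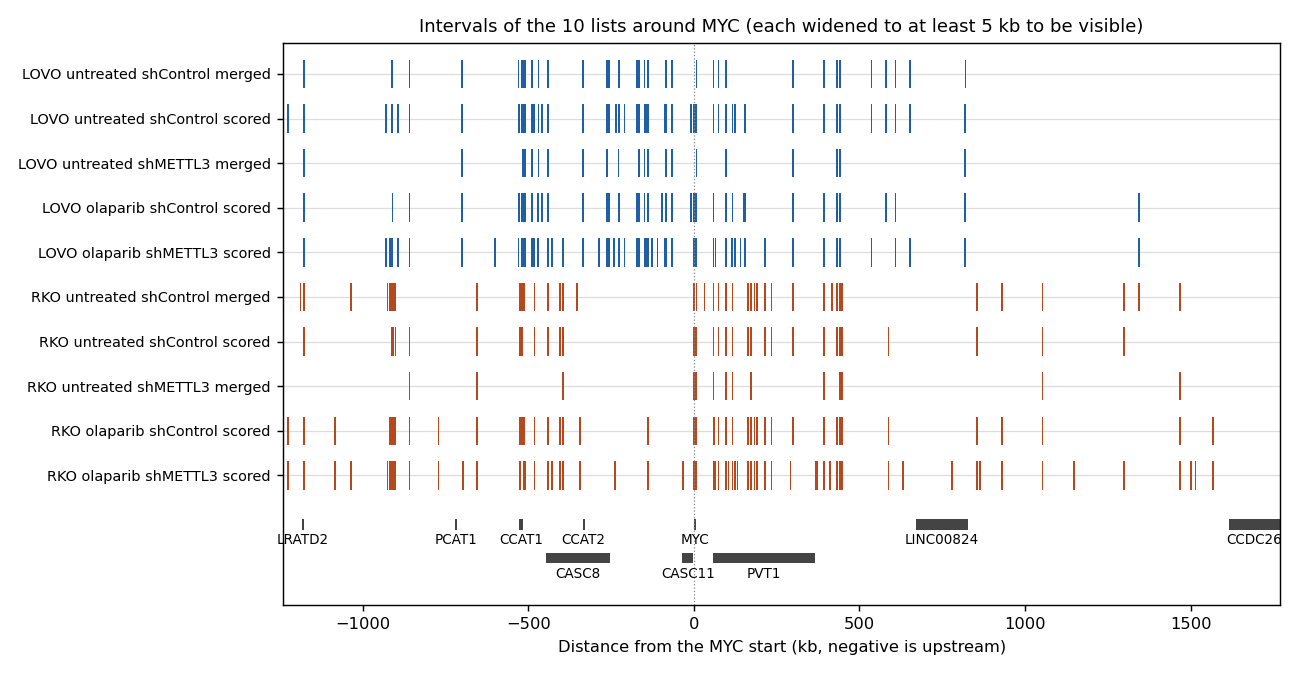
All 442 intervals by distance from the MYC start (x axis, kb, negative upstream; 1 row per list, LOVO blue and RKO orange; intervals drawn at least 5 kb wide; grey bars, annotated genes). LOVO rows are dense from CCAT2 to CASC11, where RKO rows hold at most 2 intervals, and RKO rows go on beyond LINC00824, where LOVO rows hold at most 1.

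Of the 119 regions, 28 (23.5%, 95% exact binomial interval 16.2 to 32.2) were held by lists of both lines, against 31.5% of all 72261 regions of the genome built the same way. LOVO lists alone held 42 (35.3%, 26.8 to 44.6), against 44.7% in the genome, and RKO lists alone 49 (41.2%, 32.2 to 50.6), against 23.8%. The intervals cover counting error only. In the window RKO-only regions outnumbered LOVO-only regions, whereas in the genome LOVO-only regions, from the longer lists, were the more numerous. Chromosome 8 as a whole held a larger share of the RKO lists than of the LOVO lists. The region shares of that chromosome alone were not computed, so the difference cannot be assigned to the window. A single list held 29 regions (24.4%), against 29.4% in the genome.

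Only 2 regions were in every list (1.68%, 0.204 to 5.94), against 6.00% of all regions. It was 9 of 119 (7.56%; all regions 14.7%) without the untreated shMETTL3 lists, the shortest of each line, and 13 of 117 (11.1%; all regions 16.3%) in the scored lists alone. Of the 2, the first lay inside PVT1, 96.1 kb downstream of the MYC start (127831498 to 127831927). Its score was 10.6, 11.2 and 16.3 in the LOVO lists of untreated shControl, olaparib shControl and olaparib shMETTL3, and 14.2, 17.4 and 19.2 in the same RKO lists. In RKO these scores stood above 96.2%, 98.7% and 98.0% of their lists, in LOVO above 64.0%, 75.5% and 88.4%. The second lay beyond PVT1, 441 kb downstream (128176554 to 128177489). Its intervals were 823 and 744 bp in merged and scored LOVO shControl and 740 bp in untreated LOVO shMETTL3, and 931, 592 and 536 bp in the same RKO lists. It held the highest score of the window in LOVO shMETTL3 with olaparib, 19.0. The widest interval of the window in untreated RKO shMETTL3 was this one.

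A further 6 regions were in 9 lists, among them the LRATD2 end, the PVT1 start and the site past the MYC end already given. The remaining 3 lay inside CASC8 and CASC21, 440 kb upstream of MYC, and 392 and 432 kb downstream. The region at 432 kb (128167660 to 128169299) held the widest interval of merged LOVO shControl in the window, 1640 bp. The region at 440 kb (127294396 to 127295289) was the only one between PCAT1 and CASC11 in as many as 9 lists.

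The stretch from PCAT1 to CASC11, 687 kb of long non-coding RNA genes and intergenic DNA upstream of MYC, was where LOVO had most of its open sites. It held 19, 30, 15, 24 and 34 LOVO intervals in merged shControl, scored shControl, untreated shMETTL3, olaparib shControl and olaparib shMETTL3, which is 51.7 to 68.2% of the window's intervals in each list. RKO had 9, 9, 2, 12 and 16 there, or 14.3 to 24.5%. Of its 49 regions 31 (63.3%) were in LOVO lists alone, 11 (22.4%) in RKO lists alone and 7 (14.3%) in both. An interval is counted in the stretch that holds its midpoint. The bounds of this and the other stretches were set at annotated genes with the positions of the intervals known, so the shares are a description. From CCAT2 to CASC11, 300.2 kb chosen after the values were seen, the LOVO lists held 9 to 21 intervals, whereas the untreated RKO lists held none, olaparib shControl 1 and olaparib shMETTL3 2.

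Every LOVO list and no RKO list held 12 regions, all between PCAT1 and CASC11 except 1 in LINC00824, 820 kb downstream. Over the genome 8.07% of regions were of this kind, against 10.1% (5.32 to 17.0) here. The first 10 in coordinate order stood 699, 516, 488, 469, 334, 263, 228, 165, 149 and 82.8 kb upstream of MYC. At 699 kb (127035492 to 127036168) the LOVO scores were 17.3, 14.0 and 14.2 in untreated shControl, olaparib shControl and olaparib shMETTL3, and the width was 677 bp in merged shControl and 660 bp in untreated shMETTL3. The region at 516 kb (127218812 to 127219595) covered the right-hand end of CCAT1, with 773 bp in merged shControl and 702 bp in untreated shMETTL3. At CCAT2 (127400873 to 127401613, 334 kb upstream) the widths were 741 and 492 bp, and the scores 13.7, 13.3 and 12.2. At 469 kb (127265536 to 127266505), inside CASC21, the widths were 970 and 347 bp. All 12 were narrower in untreated shMETTL3 than in merged shControl, as were the lists as a whole, with median widths of 480 and 571 bp.

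The highest score of the window in both LOVO shControl lists belonged to a region 139 kb upstream of MYC (127595965 to 127596651), 19.8 without and 19.1 with olaparib, above 98.0% and 99.5% of the scores of those lists. It was in all 5 LOVO lists, with 687 bp in merged shControl and 433 bp in untreated shMETTL3. In RKO it was absent from the 3 untreated lists and present in both olaparib lists, with 161 bp in shControl and 208 bp in shMETTL3.

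RKO had its own sites inside PVT1 and beyond it. In the PVT1 body, 307 kb long, RKO lists had 11, 11, 4, 12 and 17 intervals, counting any that overlap it, in the order merged shControl, scored shControl, untreated shMETTL3, olaparib shControl and olaparib shMETTL3, and LOVO lists 4, 8, 2, 6 and 10. Of the 20 regions there 9 were in RKO alone, 3 in LOVO alone and 8 in both. Beyond PVT1, 18 of 27 regions (66.7%) were in RKO alone and 4 in both. From the end of LINC00824 to the end of the window, a stretch of 935 kb also chosen after the values were seen, the RKO lists held 6, 3, 2, 5 and 10 intervals, and the LOVO lists none in the 3 untreated lists and 1 in either olaparib list.

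Every RKO list and no LOVO list held 4 regions (3.36%, 0.923 to 8.38), against 0.599% in the genome. Here too the share for chromosome 8 alone was not computed. Without the untreated shMETTL3 lists, of which the RKO one holds 14 intervals here, there were 12 such regions of 119 (10.1%, against 3.44%), and in the scored lists alone 14 of 117 (all regions 4.56%). The 4 stood 654 kb upstream (127080835 to 127081132, inside PCAT2 and PRNCR1), 172 kb downstream (127907444 to 127908212, inside PVT1), 448 kb downstream (128183181 to 128183547) and 1052 kb downstream of the MYC start (128787665 to 128788068). The last 2 carried the highest RKO scores of the window in shControl, 22.1 with olaparib at 448 kb and 17.8 without at 1052 kb, above 99.9% and 99.5% of the scores of their lists. In untreated shMETTL3 these intervals were 221 and 200 bp wide, against 367 and 402 bp in merged shControl. The lists as a whole were narrower too, with median widths of 253 and 429 bp. The highest score in RKO shMETTL3 with olaparib, 25.0, stood at 1467 kb (129202432 to 129202761), a region held by 4 RKO lists and no LOVO list.

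**Figure D3:**
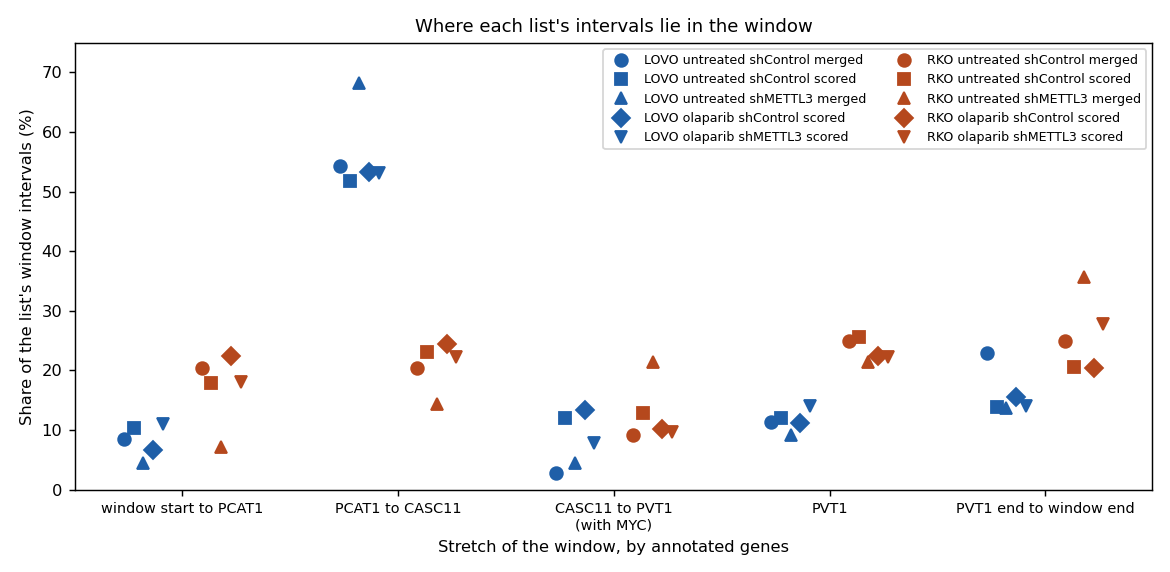
Share of each list's window intervals (y axis, %) in the 5 stretches bounded by annotated genes (x axis; LOVO blue, RKO orange; marker shape, list). In the stretch from PCAT1 to CASC11 the LOVO lists lie between 51.7 and 68.2% and the RKO lists between 14.3 and 24.5%.

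Untreated shMETTL3 was compared with untreated shControl, both as merged lists, to ask how the hairpin against the m6A writer bore on these sites. A reference interval is called kept when an interval of the other list overlaps it by at least 1 bp and lost when none does. An interval of the other list without a partner is called gained. In LOVO 21 of 35 control intervals were kept (60.0%, 42.1 to 76.1), against 47.5% of all control intervals, and 1 of 22 was gained (4.55%), against 2.73% of all. In RKO 12 of 44 were kept (27.3%, 15.0 to 42.8), against 23.1%, and 2 of 14 gained (14.3%), against 4.25%. The 4 shares of all intervals lay within the binomial intervals of the window. Those of the gained shares ran from 0.115 to 22.8 in LOVO and from 1.78 to 42.8 in RKO. Bounds this wide cannot tell whether the window departed from its lists. With scored shControl as reference the kept share in LOVO was 37.9% (22 of 58), against 40.2% of all intervals. With lists of equal number, where only the widest control intervals stayed, the kept share in RKO was 71.4% (5 of 7). Its share over all intervals was not computed.

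Between PCAT1 and CASC11 LOVO shMETTL3 kept 14 of 19 control intervals, and beyond PVT1 3 of 8. The PVT1 start and the regions 536, 579, 608 and 653 kb downstream were lost in LOVO, as was the region 392 kb downstream. RKO kept none of 9 intervals left of PCAT1, 2 of 9 between PCAT1 and CASC11, 4 of 11 in PVT1 and 5 of 11 beyond it. Control intervals that were kept had a median width of 693 bp in LOVO and 429.5 bp in RKO, and those that were lost 491 and 293 bp. The regions lost in both lines were 2, out of 14 in LOVO and 32 in RKO. They lay 910 kb upstream of MYC (126824487 to 126825246) and 74.0 kb downstream inside PVT1 (127809481 to 127810543). Such a loss needs a region in both merged shControl lists, and 11 of 35 LOVO intervals had a RKO partner there (all intervals 44.1%). The share of all regions lost in both lines was not computed. The region 858 kb upstream of MYC was lost in LOVO and gained in RKO. The LOVO gain, 64.0 kb upstream of MYC, and both RKO gains, that region and the one inside MYC near its end, were also in the scored shControl list of their line.

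The olaparib list of shControl was set against the untreated one, both scored, to ask how these sites differed with the drug. LOVO went from 58 to 45 intervals, keeping 42 (72.4%, 59.1 to 83.3; all intervals 71.8%) and gaining 4 of 45 (8.89%; all intervals 9.19%). RKO went from 39 to 49, keeping 36 (92.3%, 79.1 to 98.4; all intervals 88.5%) and gaining 15 of 49 (30.6%; all intervals 29.2%). With merged shControl as reference LOVO instead went from 35 to 45, so its direction depended on the control list. The 16 LOVO intervals that were lost had scores of 3.93 to 8.15 (median 6.30), and the 42 kept had a median of 9.25. Among the lost intervals were those of the region at the CASC11 end, 1.06 kb before the MYC start, and of the regions 536 and 653 kb downstream. RKO gains had a median score of 5.56 and included the region 139 kb upstream of MYC and the one at 1467 kb, the latter also present in merged RKO shControl. By region LOVO lost 14 and gained 3, RKO lost 2 and gained 14, and no region was lost in both lines or gained in both. With so few losses in RKO and gains in LOVO, little overlap was possible. The share over all regions was not computed.

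The hairpins were then set against each other under olaparib, both as scored lists, to see how these sites differed between them when the drug was present. Both lines had more intervals with shMETTL3, 64 against 45 in LOVO and 72 against 49 in RKO. The whole lists were longer too, 1.60 times in LOVO and 1.37 times in RKO, against 1.42 and 1.47 times in the window. LOVO kept 39 of 45 (86.7%, 73.2 to 94.9; all intervals 93.4%) and gained 24 of 64 (37.5%; all intervals 40.5%). RKO kept 47 of 49 (95.9%, 86.0 to 99.5; all intervals 89.5%) and gained 24 of 72 (33.3%; all intervals 33.1%). The gained intervals were narrow, with a median of 176 bp in LOVO and 153.5 bp in RKO, against 361 and 333 bp for the control intervals that were kept. Of the LOVO gains 12 of 24 lay between PCAT1 and CASC11, which held 53.1% of all window intervals of the LOVO shMETTL3 list. In RKO 10 of 24 lay beyond PVT1, where the number went from 10 to 20, or 27.8% of the window intervals of the shMETTL3 list. The lines gained 3 regions in common, out of 22 in LOVO and 24 in RKO, and the share over all regions was not computed. These 3 regions lay 428 kb upstream, inside CASC8 and CASC21, and 65.5 and 124 kb downstream, inside PVT1. The region at 124 kb was also in scored untreated LOVO shControl, and no further list held the others.

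In shMETTL3 cells the olaparib list, which is scored, was set beside the untreated list, which is merged. Every untreated interval was kept, 22 of 22 in LOVO (84.6 to 100; all intervals 99.2%) and 14 of 14 in RKO (76.8 to 100; all intervals 97.2%). Of the olaparib intervals 42 of 64 in LOVO (65.6%; all intervals 67.0%) and 58 of 72 in RKO (80.6%; all intervals 81.2%) had no partner in the untreated list. The MYC start in LOVO and the site past the MYC end in RKO were among the latter. The comparisons share lists, so their values are given side by side and no relation between them was computed.

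The 2 untreated shControl lists of a line also differed. The scored list met all 35 merged intervals in LOVO (90.0 to 100; all intervals 87.8%) and 31 of 44 in RKO (70.5%, 54.8 to 83.2; all intervals 63.1%). Of the scored intervals 21 of 58 in LOVO (36.2%; all intervals 23.9%) and 5 of 39 in RKO (12.8%; all intervals 11.5%) had no merged partner. The LOVO set included the start of MYC, the site inside MYC near its end, the CASC11 end and the regions 7.77 and 64.0 kb upstream. From CASC11 to PVT1 5 of the 7 scored LOVO intervals had no merged partner.

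**Figure D4:**
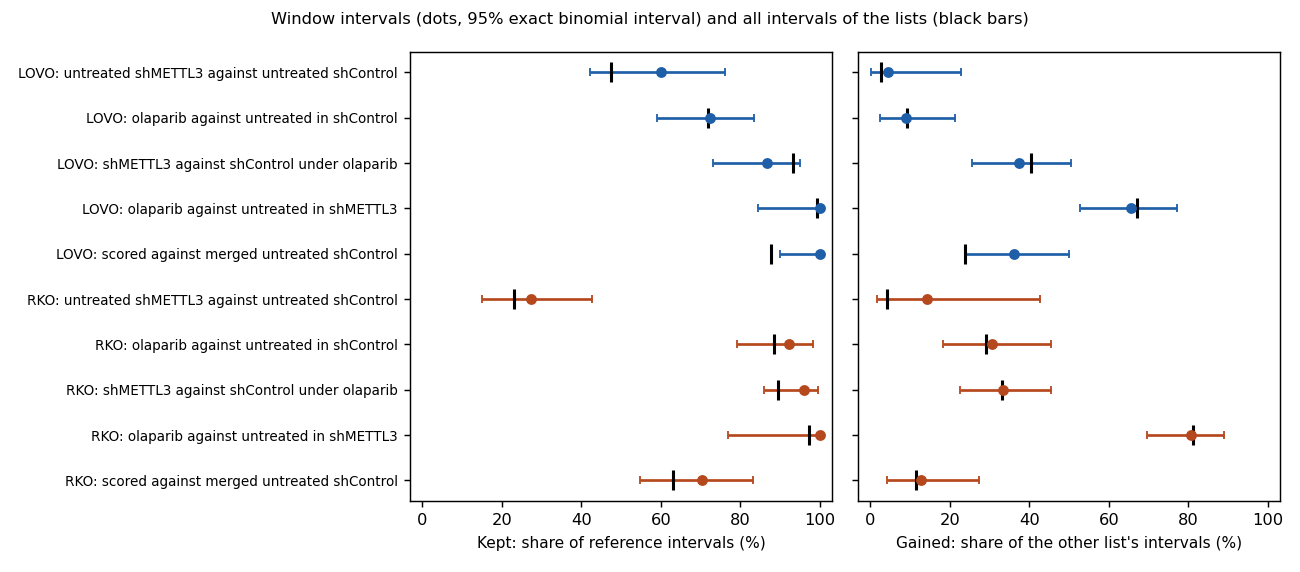
Kept share (left) and gained share (right) of window intervals in % for each comparison (dots, with 95% exact binomial intervals; LOVO blue, RKO orange), beside the share over all intervals of the lists (black bars). The bar lies inside the interval of the dot for every comparison except both shares between the LOVO control lists.

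The genes most like MYC were taken as the 5 protein-coding genes with the smallest mean absolute difference from MYC in bases covered within 1000 bp of their ends, over the 10 lists. MYC had 290, 1099, 227, 1310 and 1921 covered bases in LOVO in the order merged shControl, scored shControl, untreated shMETTL3, olaparib shControl and olaparib shMETTL3, and 1488, 1406, 182, 1597 and 1761 in RKO. In the merged LOVO lists this was less than in most genes with an open end (above 3.80% and 3.69% of them), and in the scored lists of untreated and olaparib LOVO shControl more (above 97.4% and 99.2%). The closest was the histone gene H2BC5, at a mean difference of 252 bp, with 747, 1323, 0, 1705 and 1586 bases in LOVO and 1880, 1598, 240, 1821 and 1743 in RKO. CIMIP2A (263 bp), the uridine phosphorylase gene UPP1 (309 bp) and DIPK1A (316 bp) were also among the 5. The median difference over 20036 genes was 963 bp. The lists of a line share cells and processing, so the likeness is a description.

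Genes of the MYC network were followed at their ends, 22 in all: the partner MAX, the antagonists and related factors that compete for MAX or MLX, the paralogs MYCN and MYCL, cofactors, and genes that set the turnover of MYC. In LOVO 19 of 22 had an interval within 1000 bp of an end in merged shControl, where 51.5% of protein-coding genes had one, and 18 in scored shControl (55.8%). The numbers were 12 in untreated shMETTL3 (35.8%), 17 with olaparib in shControl (53.2%) and 20 with olaparib in shMETTL3 (58.5%). In RKO they were 20 (54.9%), 18 (47.6%), 8 (25.3%), 19 (52.3%) and 19 (55.4%). MAX, the antagonist genes MXD1 and MXD4, the cofactor gene BPTF, FBXW7 and SKP2, which encode ubiquitin ligase subunits, and the kinase gene AURKA had an interval in all 10 lists. MGA had none in any list, and MYCN had one in RKO shMETTL3 with olaparib alone.

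With untreated shMETTL3 7 of 19 open network genes were lost in LOVO, against 31.2% of all open genes, and 12 of 20 in RKO, against 54.1%. None was gained, against 0.813% and 0.321%. The 6 lost in both lines were MXD3, MLXIPL, ZBTB17, which encodes the MYC partner MIZ1, MYCBP2, and the cofactor genes TRRAP and WDR5. The share of all genes lost in both lines was not computed, so the 6 cannot be set against it. MNT was lost in LOVO, and MXI1, MLX, MLXIP, MYCL, MYCBP and USP28 in RKO. TRRAP and WDR5 had no interval in scored LOVO shControl either, nor had MLXIPL and MYCBP2 in scored RKO shControl. With olaparib in shControl LOVO lost MXI1 and MYCBP2, 2 of 18 (all genes 7.47%), and gained TRRAP of 4 without an interval (3.49%), while RKO lost none of 18 (2.36%) and gained MLXIPL of 4 (11.1%). Under olaparib, shMETTL3 against shControl lost none of 17 and gained MXI1, MYCBP2 and WDR5 of 5 in LOVO (all genes 1.50% lost and 12.9% gained). In RKO it lost MLXIPL of 19 and gained MYCN of 3 (1.79% and 8.38%). Set beside untreated shMETTL3, the olaparib shMETTL3 list lost none of 12 in LOVO and none of 8 in RKO (0.279% and 0.394%), and gained 8 of 10 and 11 of 14 (35.4% and 40.4%). Between the shControl lists 2 of 19 were lost in LOVO (3.09%) and 2 of 20 in RKO (14.4%), and 1 of 3 and 0 of 2 gained (12.2% and 1.50%).

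**Figure D5:**
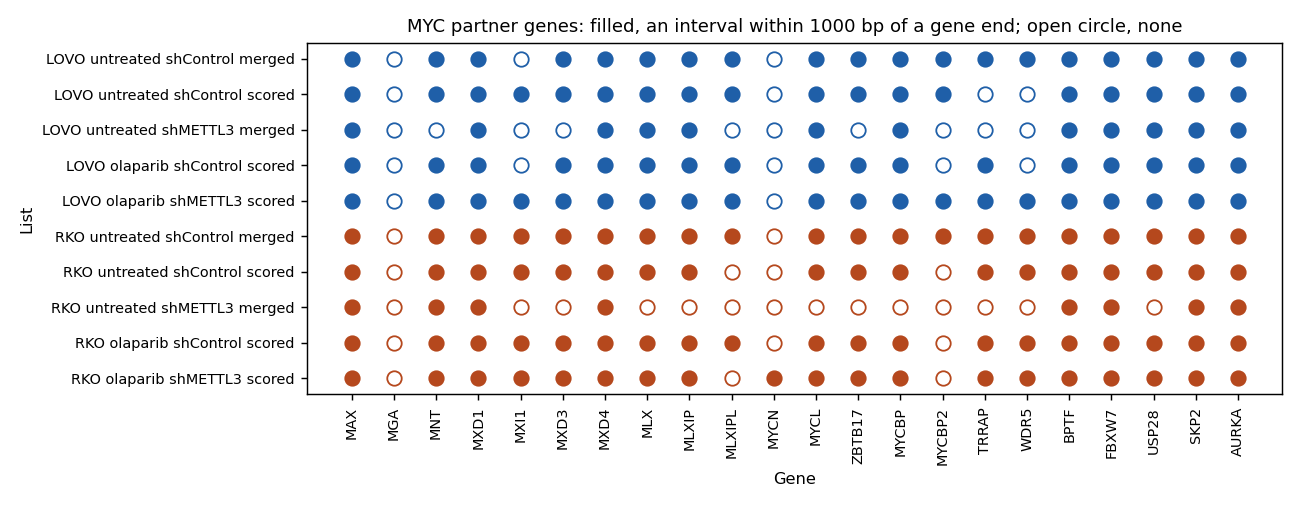
Genes of the MYC network (x axis) in the 10 lists (y axis; LOVO blue, RKO orange): filled circles, an interval within 1000 bp of a gene end, open circles, none. The rows of untreated shMETTL3 have the fewest filled circles, 12 in LOVO and 8 in RKO, and 7 genes are filled in all 10 rows.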

How the data were processed

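ATAC-seq libraries were made with a commercial kit, per the labels' protocols. Per the submitters' processing notes, build hg38 was used and the tools were MACS2 2.2.7.1, DiffBind 3.0.15, Bowtie2 2.4.2 and Trim Galore 0.6.6, with no role stated for any. Read filters, shifts for the transposase and the pooling of a group's samples are not given in the sources used here. As deposited, there are 10 lists of intervals, 6 of them with a score per interval that is the authors' own and whose MACS2 column is not stated. Scores were used within a list only. In scored lists 1.07 to 3.21% of peak names, which name replicate 1, stood on several intervals. Which untreated shControl list holds the second batch is not given, so both lists were treated as 1 group.

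Intervals were compared by overlap (at least 1 bp) in Python 3.11.15, and 95% exact Clopper-Pearson intervals came from scipy 1.17.1. No p-value was computed, because each list is for a group. Intervals per Mb of a list were taken over chromosomes counted from their first base to the last interval in any list. Gene positions came from RefSeq (GRCh38.p14), which in this table has neither strand nor exons, so both ends of a gene were used and MYC was taken as running from left to right. All 22 network genes matched a symbol. Distances run from the MYC start to the nearest base of an interval. No sequences are printed. The overlap code was tested on simulated data.

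The members and gene lists were chosen with earlier results of these data known. The text names MYC and the regions at its ends and nearest to it, regions in all lists or in every list of 1 line only (up to 10 per line), the widest and highest-scoring intervals, genes of the window with an interval at an end, the 5 genes most like MYC (1 of them is not reported here), and network genes that changed in both lines or up to 4 per state. Regions in 9 lists, those lost or gained in both lines, further network genes, the gene ends set beside the MYC start, and the bounds of the stretches were chosen after their values were seen. Alternatives were 50% overlap, 0.5 Mb either side of MYC, the other control list, lists of equal number, scores at or above the list median, joining within 500 bp, scored lists only and gene-end windows of 2500 bp.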

Additional observations from a re-analysis of the deposited data

Results flagged for a closer look

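The number of window intervals with olaparib in shControl changed by -13 in LOVO (58 to 45) and by 10 in RKO (39 to 49), that is, in opposite directions under the same contrast. The difference was not tested, since each group has 1 list. The whole lists moved in the same directions, with 0.777 times as many intervals in LOVO and 1.22 times in RKO. With merged untreated shControl as reference both lines had more intervals in the window with olaparib, 1.29 times as many in LOVO and 1.11 times in RKO.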

How the results depend on the processing

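No paired analysis was possible because the lists are for groups, and their columns carry no replicate. For the same reason no replicate could be left out. Of the alternatives, 85 values stayed within the binomial interval or within 1.5 times the value given, 29 moved and 1 reversed. The ratio of interval numbers with olaparib in LOVO shControl reversed from 0.776 to 1.29 with the merged control list, an alternative chosen after seeing the data. Within 0.5 Mb of MYC the density relative to the list was 2.01, 2.95, 3.16, 3.04 and 2.73 in LOVO (merged shControl, scored shControl, untreated shMETTL3, olaparib shControl, olaparib shMETTL3) and 2.73, 3.46, 4.42, 3.19 and 3.45 in RKO. With the other control list LOVO shMETTL3 kept 37.9%, against 40.2% of all intervals, and gained 0 of 22. LOVO olaparib shControl then kept 91.4% (76.9 to 98.2), against 77.0% of all intervals, and gained 28.9%. Of its window intervals 71.1% (55.7 to 83.6) had a partner in merged shControl, against 83.4% of all its intervals. Both shares of all intervals lay just inside the binomial intervals. With olaparib in RKO 1 network gene in place of 0 was lost with the other control list. With lists of equal number the kept shares were 77.8% in LOVO and 71.4% in RKO for untreated shMETTL3, 84.1% for LOVO olaparib, 68.9% and 75.5% for shMETTL3 under olaparib, and 63.6% and 71.4% for olaparib in shMETTL3. These lists are shorter by construction, with 18 LOVO and 7 RKO control intervals left for untreated shMETTL3. The longer list of a pair was cut to its highest-scoring intervals if scored and to its widest if merged. The shares over all intervals of the cut lists were not computed, so these values have no background beside them. With 50% overlap the LOVO control lists shared 71.4%. With scores at or above the median RKO shMETTL3 under olaparib kept 85.2%. In the scored lists alone 13 regions of 117 were in every list (all regions 16.3%), 21 in every LOVO and no RKO list (17.9%; all regions 18.5%) and 14 in every RKO and no LOVO list (all regions 4.56%). Without the untreated shMETTL3 lists, chosen after seeing the data, 9 were in every list and 12 in every RKO and no LOVO list. The share of LOVO-only regions between PCAT1 and CASC11 was 64.6% in the scored lists and 63.3% without the untreated shMETTL3 lists. Depth behind the lists is unknown, so an absent interval may be a weak one.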
